A study of Mus musculus with 2 samples.

Results

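The genes of the azurophil granule and of the neutrophil extracellular trap were examined in cultured mouse neutrophils with and without tumor exosomes. The 9 genes were taken by name (Mpo, Elane, Prtn3, Ctsg, Ctsc, Lyz1, Lyz2, Padi4 and Padi2) and all 9 were found among the 35522 features of both expression tables. Neutrophils were sorted from bone marrow of Balb/C mice as CD11b-positive, Ly-6G-high and Ly-6C-low or negative cells, and GM-CSF, which keeps cultured myeloid cells alive, was present at 10 ng/ml in both cultures. The control, PBS-treated, was given PBS for 3 days, whereas the treated culture, ELV-treated, was given 20 μg/ml tumor exosomes for 3 days. CT26, a murine colon carcinoma line, was grown as spheres of cancer stem cells (SDCSCs), and their culture medium was the source of these vesicles. Each treatment is represented by 1 RNA-seq library, so no value below has a replicate error and no test between treatments was possible. The labels give no age, and the study's methods describe mice aged a few weeks. Whether RNA of several mice was pooled is not stated.

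Azurophil granules are the first granules made during granulopoiesis. Their cargo, which includes myeloperoxidase and the serine proteases elastase, proteinase 3 and cathepsin G, is transcribed mainly in promyelocytes and its mRNA is known to decline as neutrophils mature. The serine proteases are made as inactive precursors, and cathepsin C activates them by removing a dipeptide from their N-terminus. Extracellular traps are webs of chromatin released by neutrophils, in which histones are citrullinated by the deiminase PAD4 and to which elastase and myeloperoxidase are bound.

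Values are RPKM, that is reads per kilobase of exon and per mapped reads of the library, so levels of different genes are compared per length. From the smallest values, many of which stand for 1 read, about 65.96 M mapped reads (M for mega) were estimated behind the PBS library and 79.13 M behind the ELV library. Genes under 0.25 RPKM in either library were set aside. A gene that passed was called up where ELV reached 2 times the PBS value or more, and down where it reached 0.5 times or less. Of 9698 genes kept, 31.5% were called up and 5.62% were called down, and the median log2 fold change over all of them was 0.53 (ELV over PBS), so values in ELV were higher for most genes. The intervals given for ratios cover counting error only, since the reads carry no molecular identifiers and the cultures were not repeated.

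The stretches just before the transcription start of 6 of the 9 genes are shown because these genes lie at both ends of the response (Ctsc and Padi4) or form pairs of neighbours (Elane with Prtn3, Lyz1 with Lyz2). Each is the 150 bases before the RefSeq start on GRCm38.p6, written 5′ to 3′ on the strand of the gene. Gene positions given below are from GENCODE M21, whose starts differ for some genes. For Elane, Prtn3, Lyz2 and Padi4 part or all of the printed stretch lies inside the gene as bounded there. They lie at chr10:79886162-79886311 (plus strand) for Elane, chr10:79879517-79879666 (plus strand) for Prtn3, chr7:88277935-88278084 (plus strand) for Ctsc, chr10:117292869-117293018 (minus strand) for Lyz1, chr10:117282273-117282422 (minus strand) for Lyz2 and chr4:140774204-140774353 (minus strand) for Padi4. Capitals mark letters that match one of the searched motifs on either strand.

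Elane: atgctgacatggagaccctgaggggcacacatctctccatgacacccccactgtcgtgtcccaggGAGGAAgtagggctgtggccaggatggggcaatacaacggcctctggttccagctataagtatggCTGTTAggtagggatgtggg
Prtn3: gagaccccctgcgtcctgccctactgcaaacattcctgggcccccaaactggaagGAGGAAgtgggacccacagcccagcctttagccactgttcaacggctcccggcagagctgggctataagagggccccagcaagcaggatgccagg
Ctsc: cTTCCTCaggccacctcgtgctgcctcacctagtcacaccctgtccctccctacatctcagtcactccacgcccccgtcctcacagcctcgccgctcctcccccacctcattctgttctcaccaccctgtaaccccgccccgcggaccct
Lyz1: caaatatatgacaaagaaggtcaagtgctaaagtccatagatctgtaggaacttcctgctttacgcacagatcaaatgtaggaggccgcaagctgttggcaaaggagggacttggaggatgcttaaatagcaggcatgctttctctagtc
Lyz2: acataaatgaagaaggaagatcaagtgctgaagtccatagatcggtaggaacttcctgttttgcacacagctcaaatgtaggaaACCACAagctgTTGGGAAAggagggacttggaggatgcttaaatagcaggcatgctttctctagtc
Padi4: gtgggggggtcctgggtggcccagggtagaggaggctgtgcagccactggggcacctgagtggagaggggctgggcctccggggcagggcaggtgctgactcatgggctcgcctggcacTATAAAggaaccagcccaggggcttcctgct

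Before the start of Lyz1 and Lyz2, within the 250 bases searched, 217 columns aligned at 86.2% identity. The printed stretch of Lyz1 holds no match, since its TTNCNNAA began 209 bases before the start. The letters searched, on both strands, were TATAAA for the TATA box, GAGGAA for PU.1, TGTGGT for RUNX, TTNCNNAA for C/EBP and TAACNG for MYB, and the NF-kB motif was searched as well. GAGGAA was found before Mpo, Elane, Prtn3, Ctsg and Ctsc, that is in 5 of the 9 genes, and was present in 23.3% of all 32851 windows of this length. In Elane its first base lay 85 bases before the start and in Prtn3 95 bases before it. TTNCNNAA was found before Lyz1, Lyz2 and Padi2 (36.8% of all windows), TGTGGT before Ctsg and Lyz2 (14.0%), TAACNG before Mpo and Elane (19.8%), and TATAAA before Ctsg and Padi4 (12.4%). The TATAAA of Padi4 began 31 bases before the RefSeq start. The NF-kB motif matched before Padi2 among the 9 genes and in 4.11% of all windows. These matches describe letters only, and no binding was measured.

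The members did not move together. Of the 9 genes, 8 passed the filter, and the exception was Padi2. Of these 8, Prtn3, Ctsc, Lyz1 and Lyz2 were called up, which is 4 of 8 (50%) against 31.5% of all genes kept. Padi4 was the member called down, which is 1 of 8 (12.5%) against 5.62%. Mpo, Elane and Ctsg stayed within 2-fold. Over all 8 genes the median log2 fold change was 1.11 against 0.53 over all genes kept. With 8 genes these shares are a description.

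**Figure D1:**
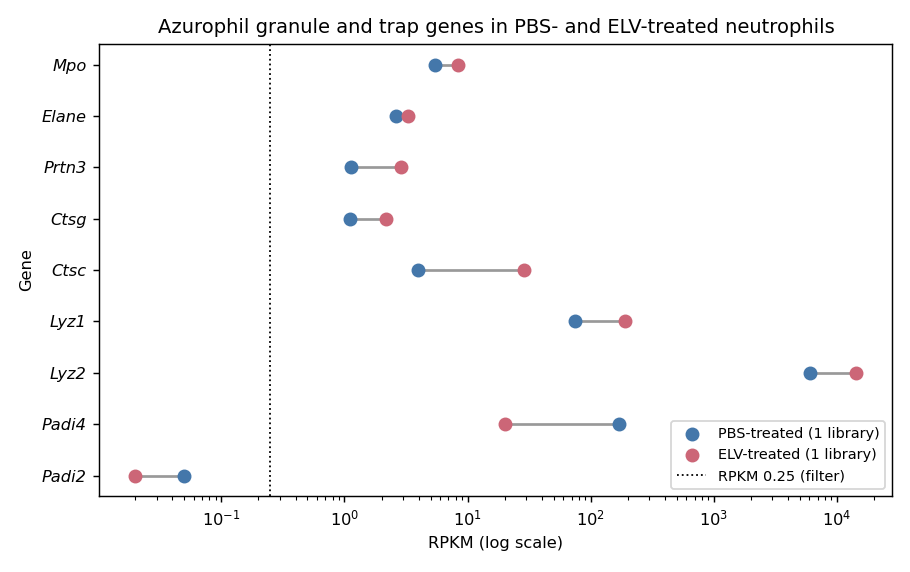
RPKM of the 9 genes (log axis) in the PBS-treated and the ELV-treated library, 1 point per library, with a dotted line at the filter of 0.25 RPKM. Lyz2 lies far above the rest in both libraries, Padi4 has 168.72 RPKM in PBS and 20.23 in ELV, and Padi2 lies under the filter in both.

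The granule enzymes made in promyelocytes were low in both libraries. Mpo, which encodes myeloperoxidase, had an RPKM of 5.48 in PBS and 8.42 in ELV, a ratio of 1.54 (95% counting interval 1.42 to 1.66). It ranked 4771 among all features in PBS and 4876 in ELV, so its place in the table was nearly the same. Elane, which encodes neutrophil elastase, had 2.64 RPKM in PBS and 3.31 in ELV, a ratio of 1.25 (interval 1.03 to 1.53). As deposited this was the smallest difference among the 8 genes, but both its place and its sign depended on the scaling, since the log2 fold change of 0.33 became -0.20 after median centring.

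Prtn3, which encodes proteinase 3, had 1.14 RPKM in PBS and 2.90 in ELV, a ratio of 2.54 (interval 1.96 to 3.34). The estimated reads behind it were 77 and 235 with the longest transcript, and the log2 interval of 0.97 to 1.74 includes the limit of 1. With the length of all exons joined it was 1.06 to 1.65, which does not. Ctsg, which encodes cathepsin G, had 1.10 RPKM in PBS and 2.17 in ELV, a ratio of 1.97 (interval 1.49 to 2.62), from about 73 and 172 reads. Thus Prtn3 and Ctsg lay on different sides of the 2-fold limit although their intervals overlap. Prtn3 was no longer called after median centring (log2 fold change 0.82), and Ctsg was called after rescaling to TPM (1.03).

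By deposited value the order of the 4 enzymes was the same in both libraries, with Mpo highest, then Elane, Prtn3 and Ctsg. Prtn3 and Ctsg were close in PBS (about 77 and 73 reads), as were Elane and Prtn3 in ELV (about 258 and 235 reads). The order of such close pairs was not tested. Their summed RPKM was 10.4 in PBS and 16.8 in ELV. The distance between Elane and Prtn3 narrowed, from 2.32 times as much Elane RPKM in PBS to 1.14 times in ELV. The log2 fold change of Prtn3 exceeded that of Elane by 1.02 (counting SE 0.24, 95% interval 0.56 to 1.48). This difference within the libraries does not depend on a common scaling factor. The corresponding difference between Prtn3 and Ctsg was 0.37, with an interval of -0.18 to 0.91, and that between Mpo and Elane was 0.29, with an interval of -0.01 to 0.59. Neither of these was detectable at this depth. In log2 fold change Ctsg exceeded Elane by 0.65 (interval 0.17 to 1.14) and Prtn3 exceeded Mpo by 0.73 (0.34 to 1.11). The difference between Ctsg and Mpo was 0.36, with an interval of -0.05 to 0.77 that includes 0.

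Prtn3 (chromosome 10, 79874476 to 79883174, plus strand) and Elane (chromosome 10, 79886247 to 79888215, plus strand) are neighbours in GENCODE M21 on GRCm38. Their longest transcripts aligned over 638 columns at 66.5% identity and shared 0 of 935 windows of 50 bases, so no stretch of that length was common to both. In this annotation the start of Prtn3 overlaps Plppr3 on the opposite strand, and counting by strand is not stated, so reads from that overlap cannot be assigned to either gene. Ctsg (chromosome 14, 56099881 to 56102574, minus strand) lies among mast cell protease and granzyme genes, and Mpo lies on chromosome 11 (87793581 to 87804413, plus strand). The gene next to Elane on its other side, Cfd, which encodes the serine protease adipsin, was listed at 0 in both libraries. So were Lpo, the lactoperoxidase gene beside Mpo, and Mcpt4, Gzme and Gzmd around Ctsg. Mcpt8, a basophil protease gene at the same locus, had 0.86 RPKM in ELV and a log2 fold change of -0.23.

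When the genes kept were ordered by mean log2 RPKM and divided into 10 level groups of about 970 genes, the group of Prtn3 and Ctsg had a median log2 fold change of 1.09 with 53.2% of genes called up, and the group of Elane had 0.91 with 46.6% up. The group of Mpo had 0.57 with 28.6% up. Relative to the median of its own group, the log2 fold change was 0.26 for Prtn3, -0.11 for Ctsg, -0.58 for Elane and 0.05 for Mpo. The sign of Ctsg, like that of Elane, therefore reversed when each gene was set against its level group.

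**Figure D2:**
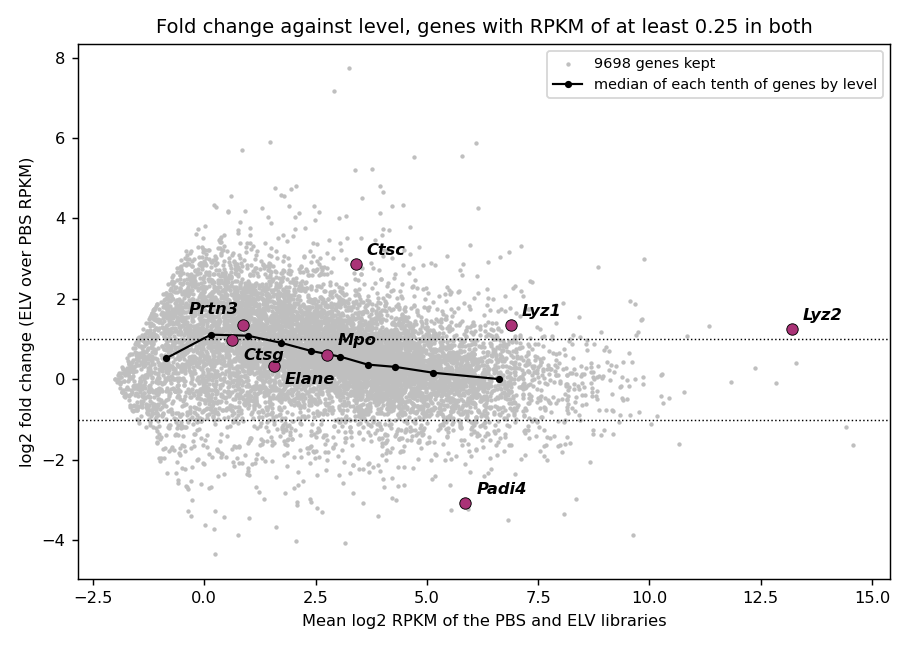
Log2 fold change (ELV over PBS RPKM) against mean log2 RPKM for the 9698 genes kept, with the 8 members that passed the filter labelled, dotted lines at a ratio of 2 in either direction and black points at the median of each of 10 level groups. Mpo, Ctsg and Prtn3 lie near the line of medians, and Elane lies below it (-0.58 relative to its level group). Ctsc, Lyz1 and Lyz2 lie above the line, and Padi4 lies far below it.

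Cathepsin C had the highest ratio of the 9 genes. Ctsc (chromosome 7, 88278085 to 88310888, plus strand) encodes the lysosomal dipeptidyl peptidase that activates elastase, proteinase 3 and cathepsin G. It had 3.94 RPKM in PBS and 28.58 in ELV, a ratio of 7.25 (interval 6.75 to 7.80), and climbed from rank 5448 to rank 1956. A ratio of at least 4 was reached by 8.52% of all genes kept. The log2 fold change of Ctsc, 2.86, was higher than that of 98.1% of all genes kept and than that of 99.1% of its level group, and it stayed past the 2-fold limit under each alternative, between 2.32 and 2.91. In PBS the RPKM of Ctsc was 1.49 times that of Elane, and in ELV it was 8.63 times.

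Ctsc was also set against the granule enzymes directly. Its log2 fold change exceeded that of Elane, a substrate of cathepsin C, by 2.53 (counting SE 0.15, interval 2.24 to 2.83) and that of Mpo by 2.24 (SE 0.08, interval 2.09 to 2.39). The genes around Ctsc were mostly at or near 0. Tyr and Grm5 on one side were listed at 0 in both libraries, and Rab38 on the other had 0.17 RPKM in PBS and 0.12 in ELV. Tmem135, 829 kb away, had 4.80 and 11.13 RPKM. Features nearest to Ctsc in the plane of both log2 RPKM values were Uqcrb, Bola2 and 2900010M23Rik, at distances of 0.17, 0.20 and 0.23 over the 2 libraries.

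Lysozyme was the most abundant product of the group. Lyz2 (chromosome 10, 117277331 to 117282321, minus strand) encodes lysozyme M, the bacteriolytic enzyme of myeloid cells. It had 6092.39 RPKM in PBS and 14429.5 in ELV, a ratio of 2.37 (interval 2.36 to 2.38). The fifth feature of the PBS table, it was the first of the ELV table, ahead of S100a8 (14381.8) and S100a9 (13834.1). Its share of all summed RPKM was 1.70% in PBS and 4.16% in ELV. About 528844 reads in PBS and 1502574 in ELV were estimated for it, so counting error was small.

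Lyz1 (chromosome 10, 117287797 to 117292868, minus strand) encodes lysozyme P, known from Paneth cells of the intestine, and lies 5.48 kb from Lyz2. It had 74.64 RPKM in PBS and 189.21 in ELV, a ratio of 2.53 (interval 2.46 to 2.61). Lyz2 exceeded Lyz1 81.6 times in PBS and 76.3 times in ELV, so the pair kept nearly the same proportion. Their log2 fold changes, 1.34 for Lyz1 and 1.24 for Lyz2, differed by 0.10 (counting SE 0.02). The longest transcripts of the pair aligned over 1264 columns at 95.8% identity, and 195 of 1214 windows of 50 bases of Lyz1 (16.1%) also occurred in Lyz2. How the authors assigned reads that match both genes is not stated, and the value of Lyz1 is uncertain to that extent.

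Both lysozyme genes stood above most genes of like level. In their level group, the highest of the 10, the median log2 fold change was 0.01, with 10.8% of genes called up and 11.3% called down. Lyz1 was higher than 94.1% and Lyz2 higher than 93.1% of this group. Median centring brought their log2 fold changes to 0.82 and 0.72, below the 2-fold limit, whereas against their own level group they were 1.33 and 1.23. The other 8 genes of the lysozyme family (Lyzl1, Lyzl4, Lyzl6, Spaca3, Spaca5, Lalba, Lyg1 and Lyg2) had at most 0.02 RPKM in either library. Beside Lyz2 lies 9530003J23Rik, listed at 0.01 RPKM in PBS and 0 in ELV, and beyond it Yeats4, with a log2 fold change of 0.52. Cpsf6, on the side of Lyz1, had 0.92, also within 2-fold. In the plane of both log2 RPKM values the feature nearest to Lyz2 was the ferritin gene Fth1 at a distance of 0.60, and the nearest to Lyz1 was Pilra at 0.23.

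The deiminase that citrullinates histones showed the opposite direction. Padi4 (chromosome 4, 140745865 to 140774236, minus strand) encodes PAD4, an enzyme that turns arginine of histones into citrulline and is required for the decondensation of chromatin in many forms of trap release. It had 168.72 RPKM in PBS and 20.23 in ELV, an 8.34-fold lower value (log2 fold change -3.06, interval -3.10 to -3.02). Its rank went from 259 to 2640. A ratio of 0.25 or less was reached by 1.14% of all genes kept, and 0.23% of them had a lower log2 fold change than Padi4. The call held under every alternative, with log2 fold changes from -3.60 to -2.999. About 33620 reads in PBS and 4836 in ELV were estimated for it.

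Padi2, which encodes a deiminase with a broader tissue distribution, was barely detected. Its RPKM was 0.05 in PBS and 0.02 in ELV, or about 16 and 8 reads, where 3 reads correspond to 0.0095 and 0.0079 RPKM. The interval of its log2 ratio was -2.69 to 0.05 with the length of the longest transcript and -2.77 to -0.06 with the length of all exons joined, so whether it includes 0 depended on a length that the sources do not give. The rounding of the deposited values alone allows ratios of 0.27 to 0.56. Padi4 exceeded Padi2 3374-fold in PBS by RPKM. Over the 5 deiminase genes the summed RPKM was 170.17 in PBS and 20.54 in ELV, nearly all of it from Padi4.

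The remaining genes of the deiminase cluster on chromosome 4 were low. Padi3, 11.1 kb from Padi4, had 1.26 RPKM in PBS and 0.25 in ELV, a log2 fold change of -2.33 (interval -2.76 to -1.95), just at the filter in ELV. Padi6 had 0.12 and 0.03 RPKM, and Padi1 had 0.02 and 0.01. All 5 deiminase genes were thus lower in ELV by deposited value, but for Padi1 the interval, -3.69 to 1.36, includes 0, as did that of Padi2 with the longest transcript. Rcc2, the gene on the other flank of the cluster, was higher in ELV (5.95 and 17.53 RPKM). The feature nearest to Padi4 in the plane of both values was Adpgk at 0.15, followed by Ltf at 0.48 and Olfm4 at 0.56, the latter a pair of secondary granule genes.

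Next, related genes were counted, from lists written by hand with earlier results of these data known. Of 7 kept genes of other granule proteins, 2 (28.6%) were up and 2 were down, against 31.5% and 5.62% of all genes kept. Stom, a membrane scaffold gene, had 3.37 RPKM in PBS and 15.32 in ELV, and Lamp1, the other gene up, had 83.99 and 282.03. Those down were Cd63, with 147.41 RPKM in PBS and 58.37 in ELV, and Mmp25, with 47.67 and 18.27. Bpi, which encodes a bactericidal azurophil protein in human, was listed at 0 in both libraries, and Prss57, which encodes the azurophil serine protease NSP4, had 0.21 RPKM in PBS and 0.08 in ELV. Of 7 kept genes of early granulocytes outside the members, 2 (28.6%) were up against 31.5% of all genes kept. These were Gstm1, with a ratio of 6.62 (5.90 RPKM in PBS), and Igfbp4, with 4.24 (0.29 RPKM in PBS, close to the filter). Another 1 (14.3%) was down, against 5.62%. That gene was Hk3, with 196.49 RPKM in PBS and 57.14 in ELV. Progenitor markers were near 0, with a highest value of 0.28 RPKM in PBS and 0.54 in ELV.

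Acid hydrolases, which azurophil granules share with lysosomes, were counted next. Of 25 genes, all kept, 10 (40%) were up against 31.5% of all genes kept and 0 were down against 5.62%, with a median log2 fold change of 0.73 against 0.53 over all genes. The cysteine protease gene Ctss had a ratio of 6.84, the acid phosphatase gene Acp2 of 6.62 and Ctsb of 5.02. These were named for passing 4-fold, whereas 15 of the 25 genes stayed within 2-fold. Ctsc, with a ratio of 7.25, lay near the genes named here and above the median of the list.

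The packaging and inhibition of granule proteases were examined next. Of 20 packaging and traffic genes, 6 (30%, near the 31.5% of all genes) were up and 2 (10%, against 5.62%) were down. G6pc3, a glucose-6-phosphatase gene whose loss causes neutropenia, had a ratio of 7.83. Srgn, which encodes the proteoglycan serglycin that retains elastase in granules, had 1163.71 RPKM in PBS and 659.25 in ELV, within 2-fold. Of 13 kept inhibitor genes, 2 (15.4%) were up against 31.5% of all genes kept and 5 (38.5%) were down against 5.62%. Their median log2 fold change was -0.52, which turned to 0.18 when an RPKM of at least 1 was required. Serpinb1a, which encodes an inhibitor of elastase, proteinase 3 and cathepsin G, had 13.54 RPKM in PBS and 3.39 in ELV, a 3.99-fold lower value. Serpinb10 had 2.32 and 0.29 RPKM, whereas 1100001G20Rik had 333.40 and 2632.64 RPKM. The latter is an older name of Wfdc21, which encodes a protein with a whey acidic protein domain. Cst7, which encodes cystatin F, an inhibitor of cathepsin C, was low, with 0.09 RPKM in PBS and 0.29 in ELV.

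Of 16 transcription factors of granule genes, 0 were up against 31.5% of all genes kept and 1 (6.25%) was down against 5.62%. Their median log2 fold change was -0.06 against 0.53 over all genes. Cebpe, a factor of late granulopoiesis, had 10.86 RPKM in PBS and 5.44 in ELV, a log2 fold change of -0.997, just inside the 2-fold limit. Gfi1, which encodes a transcriptional repressor active in granulopoiesis, had 0.50 and 0.33 RPKM. Genes tied to extracellular traps outside the members had 8 up (25%, against 31.5% of all genes kept) and 3 down (9.38%, against 5.62%) among 32 kept. Their median was 0.43 against 0.53 over all genes, and it turned to -0.0945 under median centring. Cybb, the catalytic subunit of the NADPH oxidase, had 69.67 RPKM in PBS and 295.08 in ELV, and Camp, which encodes a cathelicidin found on traps, had 381.38 and 33.92 RPKM.

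Of 6 kept genes of deoxyribonucleases and trap clearance, 3 (50%) were up against 31.5% of all genes kept and 0 were down against 5.62%. Trex1, a cytosolic exonuclease gene, had 5.57 RPKM in PBS and 46.43 in ELV. Plbd1, which is not a deoxyribonuclease gene, had a ratio of 5.49, and Dnase2a had 11.48 and 23.01 RPKM. Under the filter were Dnase1, with 0.13 RPKM in PBS and 0.15 in ELV, and Dnase1l3, with 0.45 and 0.19. Of 14 kept histone and chromatin genes, the substrates and partners of chromatin in traps, 5 (35.7%) were up, near the 31.5% of all genes kept. None was down, against 5.62%, and Cbx5, H2afy and H1f0 were past 4-fold (ratios 4.70, 4.41 and 4.01). Secondary and tertiary granule cargo had 8 of 14 kept genes down (57.1%), against 5.62% of all genes kept. All of these were past 4-fold, a limit that 1.14% of all genes kept passed downward. Another 3 (21.4%) were up against 31.5%, and the list median was -2.08. The log2 fold change was -3.86 for Retnlg, -3.49 for Camp, -3.34 for Ngp and -3.25 for Ltf. Padi4, at -3.06, was likewise past 4-fold lower, whereas Mpo, Elane, Prtn3 and Ctsg had values of 0.33 to 1.35, and the list itself reached 2.08 with Cybb.

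**Figure D3:**
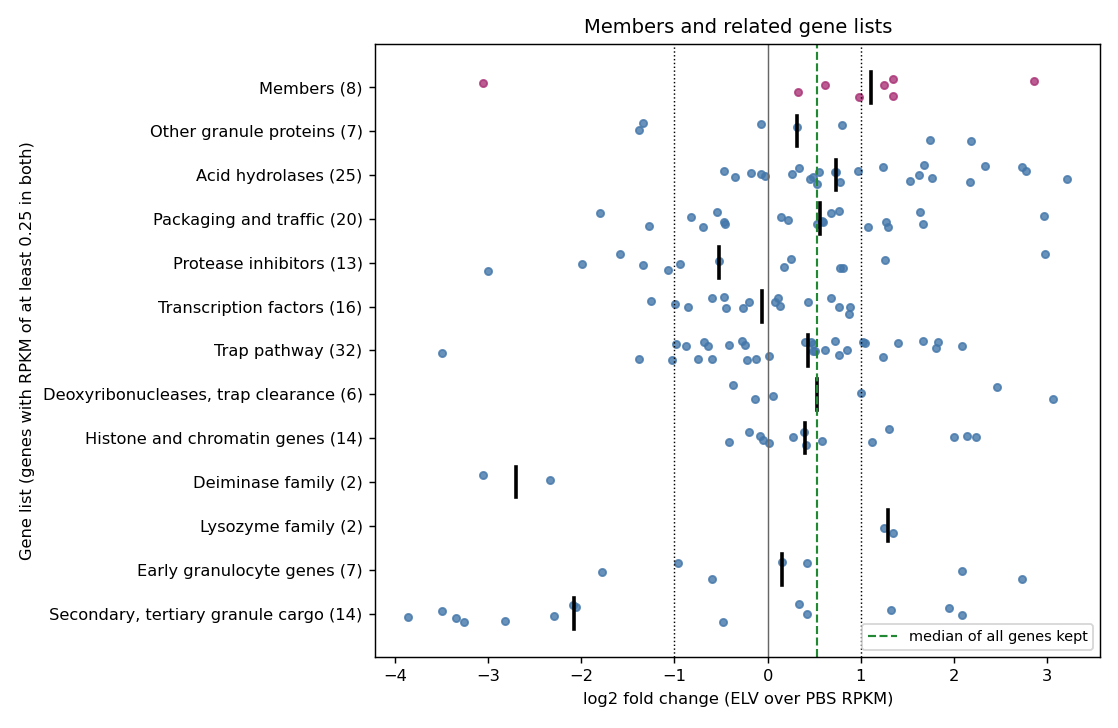
Log2 fold change (ELV over PBS RPKM) of the 8 members kept and of the kept genes of 12 related lists, 1 point per gene, with a bar at each list's median, a dashed line at the median of all genes kept (0.53) and dotted lines at a ratio of 2 in either direction. Secondary and tertiary granule cargo has a median of -2.08, and acid hydrolases have a median of 0.73.

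Markers of other cells were followed in the same libraries, because in bulk RNA fewer cells of a type and less RNA per cell cannot be told apart. All 14 neutrophil markers were present, and 11 of them (78.6%) were called down against 5.62% of all genes kept. Their summed RPKM was 86647.9 in PBS and 34964.6 in ELV, of which S100a8 and S100a9 made 75881.9 and 28216. Several of these markers, such as Ltf, Camp, Ngp and Retnlg, also belong to the secondary and tertiary granule cargo counted above. All 13 monocyte and macrophage markers had a higher value in ELV, with a sum of 228 RPKM in PBS and 711 in ELV. Of the 8 kept, 6 (75%) were up, against 31.5% of all genes kept. Among these Ms4a7 had a ratio of 16.5 (1.02 RPKM in PBS and 16.79 in ELV) and Emr1 of 7.25 (20.91 and 151.51). C1qc had a ratio of 14.0 (0.27 and 3.79 RPKM) and C1qb of 7.67 (0.30 and 2.30), both close to the filter in PBS. Cd14, with 117.77 and 208.76 RPKM, and Ccr2, with 0.50 and 0.88, stayed within 2-fold. Lyz2 and Ctsc are also known from macrophages, and the part of such cells or of such a state in their values was not tested. B cell markers summed to 110 RPKM in PBS and 68.0 in ELV, T and NK cell markers to 58.65 and 8.62 (of which Cd3d made 56.44 and 7.02, with Trac at 0 in both), and dendritic cell markers to 154 and 106. Eosinophil markers summed to 10.6 and 5.29 RPKM, basophil and mast cell markers to 2.38 and 2.72, and erythroid markers to 1.57 and 0.15. Colon carcinoma and epithelial markers summed to 0.67 RPKM in PBS and 0.26 in ELV, with Krt8, Krt20 and Cldn4 at 0 in both.

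The scaling of the libraries decided several of these calls. As deposited, 4 members were up, and after median centring, or with the trimmed mean subtracted, 1 was up, which was Ctsc. Over all genes kept, 84.9% of calls were up as deposited, 56.0% after median centring, 54.7% with the trimmed mean subtracted and 49.7% within level groups. When each gene was set against the median of its level group, Ctsc, Lyz1 and Lyz2 were up. Padi4 was down in each case.

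**Figure D4:**
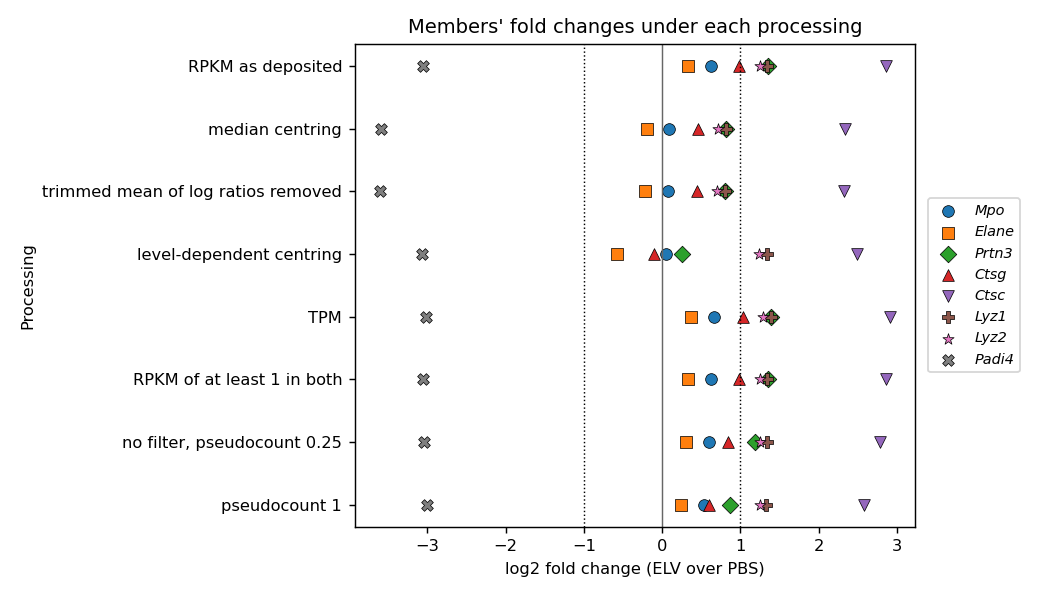
Log2 fold change (ELV over PBS) of the 8 members kept under the deposited scale and 7 alternatives, 1 marker per gene, with dotted lines at a ratio of 2 in either direction. Ctsc stays to the right of the upper limit and Padi4 to the left of the lower limit, whereas Elane changes sign between the deposited scale (0.33) and level-dependent centring (-0.58).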

How the data were processed

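RNA of 1 PBS-treated and 1 ELV-treated neutrophil culture was sequenced after TruSeq mRNA preparation. The authors trimmed low-quality bases, used CLC Genomics Workbench, and deposited RPKM per feature. The submitters' processing notes name build mm10. The annotation, and the treatment of reads shared between genes, are not stated. Commas inside numbers were removed, and 25 features whose names had become date serial numbers stayed in all counts unnamed. RPKM are not counts, so no count model was fitted, and with 1 library per group no p-value was computed. Depth was estimated from RPKM below 0.01, where 1 read, divided by its RPKM and by the longest GENCODE M21 transcript, gave the same total (within 1%) for 259 of 918 features in PBS and 303 of 1064 in ELV. Estimated reads, from the longest transcript unless the length of all exons joined is named, served for 95% counting intervals alone, exact Clopper-Pearson for 1 gene and a normal approximation of log counts for differences between genes. Promoters came from RefSeq (GRCm38.p6, 9 of 9 genes matched), and the work was done in Python 3.11.15 (pandas 2.3.3, scipy 1.17.1, biopython 1.88). The rules for fold calls and for the depth estimate, and no other step, were tried on simulated reads.

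Genes named were all members, list genes past 4-fold (up to 4 per list), genes tied to a member's function, the 3 features nearest in the plane of log2 RPKM and the 2 protein-coding neighbours on each side. Some further list genes and markers were named to show values of the other direction, within 2-fold or under the filter. The values of 1 list gene are not reported here. The members and lists were chosen with earlier results of these data known. Alternatives were median centring, subtraction of a trimmed mean (30% of ratios and 5% of levels left out at each end), centring within 10 level groups, TPM computed from the deposited RPKM, a filter at 1 RPKM, values with 0.25 added and no filter, values with 1 added, and a 4-fold limit for calls.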

Additional observations from a re-analysis of the deposited data

How the results depend on the processing

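Calls of the members are listed here where an alternative changed them, and no cause was tested. Members called up numbered 4 as deposited and 1 at a 4-fold limit, under median centring and with the trimmed mean removed. They numbered 3 within level groups, 3 with a pseudocount of 1 and 5 under TPM. Members called down stayed at 1 throughout. Under median centring the log2 fold changes were -0.20 for Elane, 0.82 for Prtn3, 0.82 for Lyz1 and 0.72 for Lyz2, with 1634 genes up, 1282 down and a median of 0 by construction. With the trimmed mean removed they were -0.22, 0.81, 0.80 and 0.70, with 1594 up, 1322 down and a median of -0.0151. Centring within level groups gave -0.58 for Elane, -0.11 for Ctsg and 0.26 for Prtn3, with 1290 up, 1304 down and a median of 0. TPM gave 1.03 for Ctsg and a median of 0.57. A pseudocount of 1 gave 0.87 for Prtn3, 1976 genes up and a median of 0.41. An RPKM of at least 1 left 1958 up with a median of 0.45, and no filter gave a median of 0.16. At a ratio of at least 4 Prtn3 (1.35), Lyz1 (1.34) and Lyz2 (1.24) were no longer called, and 826 genes were up and 111 down. The deposited values gave 84.9% of all calls as up, median centring 56.0%, trimmed mean removal 54.7% and level groups 49.7%.

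List medians changed sign as follows. Under median centring and trimmed mean removal they were -0.21 and -0.23 for other granule proteins, -0.0945 and -0.11 for the trap pathway, -0.13 and -0.14 for histone and chromatin genes, and -0.37 and -0.39 for early granulocyte genes, while deoxyribonucleases reached -0.0121 under trimmed mean removal. Early granulocyte genes were also below 0 within level groups (-0.37), at an RPKM of at least 1 (-0.27) and with no filter (-0.0394). At an RPKM of at least 1 protease inhibitors became 0.18 and transcription factors 0.0787. No paired analysis was possible because each group holds 1 library. Depth limits Padi2, Prtn3 and Ctsg, with 16, 77 and 73 estimated reads in PBS.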
